A study of Homo sapiens with 10 samples.

Results

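The comparison concerns the 8 RNA-Seq libraries of MV4-11 cells, a human acute myeloid leukemia (AML) cell line, out of 10 samples in all. Replicates 1 and 3 of each genotype, 4 libraries, were set against replicates 2 and 4, the other 4. The genotypes were control cells, infected with the control vector, and IRF8 KO cells, in which the transcription factor gene IRF8 was targeted by lentiCRISPRv2, a lentivirus carrying Cas9 and a guide RNA. According to the methods of the study, the knockout cells were clones obtained by limiting dilution after selection with puromycin, and all cells grew in RPMI with fetal calf serum. The labels do not give the clone behind each knockout replicate, nor what a shared replicate number marks (a day, a passage or a batch). The split was chosen from the data themselves, because libraries with these numbers deviated together in earlier results. The differences between the replicate pairs are therefore given as descriptions with no test.

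Values are read counts divided by 1 size factor per library (normalized counts). A side difference is the mean log2(normalized count + 1) of replicates 1 and 3 minus that of replicates 2 and 4, taken within each genotype and averaged over both. Where counts are few, this scale understates the change. In bulk RNA, fewer cells of a type or state and less RNA per cell cannot be told apart.

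Several of the genes with the largest differences belong to the integrated stress response. In this response, kinases that sense uncharged tRNA, misfolded protein, heme shortage or double-stranded RNA phosphorylate the translation factor eIF2. Most translation then slows, while that of the transcription factor ATF4 rises. ATF4 and its partners switch on genes for amino acid synthesis, amino acid uptake and tRNA charging, and leukemia cells are known to engage this program when glutamine, asparagine or cystine run short. The cytosolic heat shock genes, in contrast, are driven by HSF1, and the S phase and G2/M genes are expressed in dividing cells.

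Of the 13110 genes whose mean reached 10 normalized counts, 221 (1.69%) were at least 2-fold higher in replicates 1 and 3, with both libraries of that pair above both libraries of the other pair in each genotype. Another 739 genes (5.64%) were at least 2-fold lower by the same rule. Without the fold, the pairs were apart in both genotypes for 2527 genes higher (19.3%) and 2477 lower (18.9%) in replicates 1 and 3. These are the shares against which the gene lists are read below, where a gene that meets the rule with the fold is called counted. The genotype took 55.0% of the sum of squares over these genes, the side 24.8%, the dependence of the side on the genotype 5.35%, and the spread between the 2 libraries of a pair 14.8%. Just inside the fold were FTSJ3 (1.0009) and TBXA2R (-1.0005), and just outside it URB2 (0.9989) and MYRF (-0.9994).

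The targeted gene was checked first. IRF8 had 36891 and 43016 normalized counts in control replicates 1 and 3 against 15192 and 22535 in control replicates 2 and 4, and 6377 and 12903 against 2401 and 7819.7 in the knockout, so that its mRNA was lower but present in the knockout. The AML receptor gene FLT3 and the myeloid surface antigen gene CD33 had at least 39931 and 2101 normalized counts in every library.

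Reads on genes numbered 48762519 to 65519047 in control replicates 1 and 3 and 52203556 to 55558994 in control replicates 2 and 4, where the pairs overlapped. In the knockout, replicates 1 and 3 were shallower, at 39560072 to 50354664 against 52263132 to 54048461 reads, so that depth moved with the pairs there, and its part in the differences was not tested. The size factors divide out depth, but normalized totals were also apart. The lowest of replicates 1 and 3 was 52365349 and the highest of replicates 2 and 4 was 51660518. Across genes, the deviations of a library from the mean of its genotype correlated at 0.37 to 0.50 between control and knockout libraries of the same pair, and at -0.47 to -0.37 between those of opposite pairs. Within the control, replicates 1 and 3 correlated at 0.83 and replicates 2 and 4 at 0.71, whereas the knockout pairs stood at -0.13 and 0.05. Libraries of opposite pairs correlated at -0.91 to -0.86 within the control and at -0.68 to -0.16 within the knockout. The -0.16 was between knockout replicates 3 and 4, close to the -0.13 of knockout replicates 1 and 3. These are correlations across genes, which are not independent replicates, and deviations of 1 genotype sum to 0. Control replicates 1 and 3 were the closest pair, but differed beyond sampling noise (chi-square per degree of freedom 7.01, against 41.1 for control replicates 2 and 4, and 131 and 90.7 for the knockout pairs). Median side differences of single chromosomes lay between -0.10 and 0.07.

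**Figure D1:**
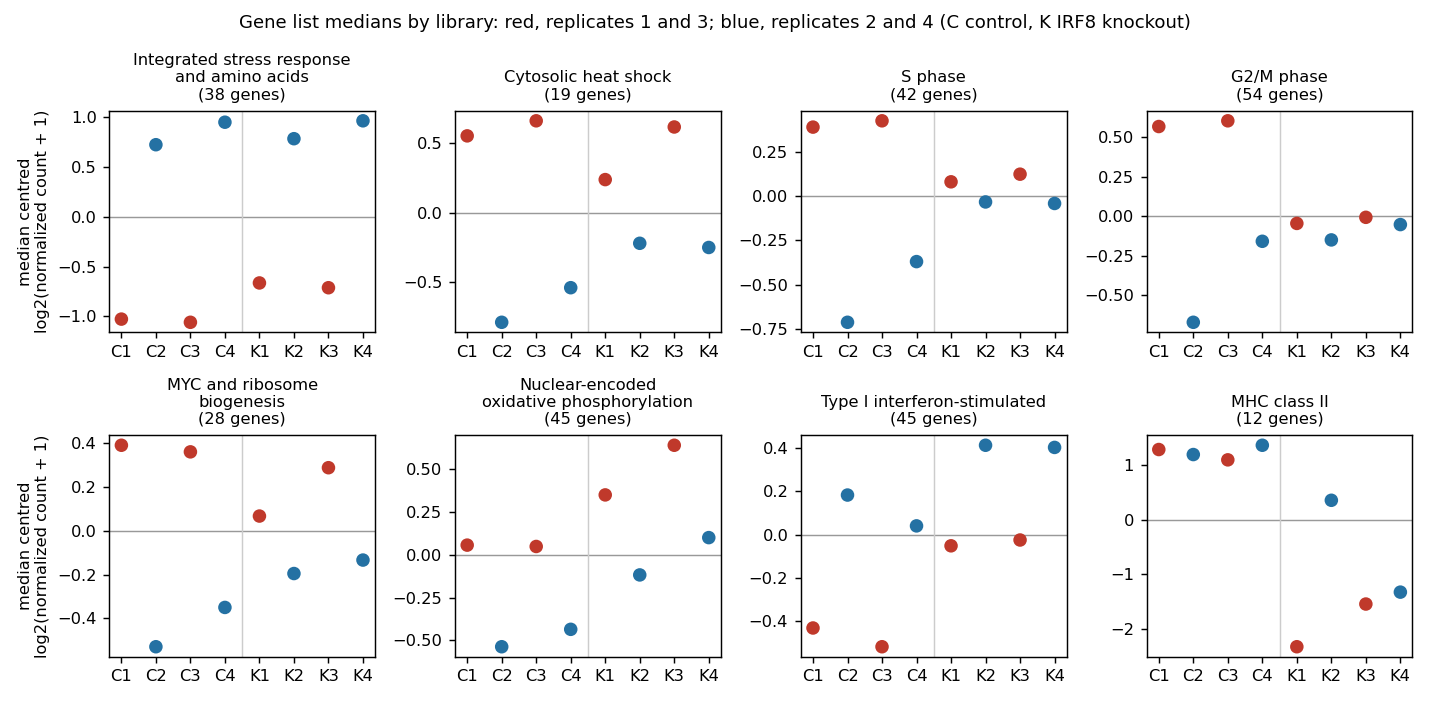
Medians of 8 gene lists in each library, on the y axis as log2(normalized count + 1) centred on the mean of each gene over the 8 libraries, and on the x axis the 4 control (C1 to C4) and 4 knockout libraries (K1 to K4), with replicates 1 and 3 in red and 2 and 4 in blue. Integrated stress response genes lay between -1.06 and -0.66 in replicates 1 and 3 and between 0.72 and 0.96 in replicates 2 and 4, with a similar gap in both genotypes, while the gap of the S phase and G2/M lists was wide in the control and narrow in the knockout.

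The integrated stress response and amino acid genes were lower in replicates 1 and 3 as a group. Of 38 genes tested, 29 were counted as lower and none as higher, 36 were apart in both genotypes, and the side difference of each of the 38 was below 0. The median was -1.70, with -1.96 in the control and -1.38 in the knockout, against -0.02 over all tested genes. The difference was of like size in both genotypes. With genotype alone in the model, none of these 38 genes was called at an adjusted p below 0.05 by limma, edgeR or DESeq2. Over all tested genes, limma called 8.65% as higher and 9.56% as lower in the knockout. That model leaves the side difference in the spread, so a gene with a large side difference could hardly be called. The missing calls therefore do not show that the genotypes were alike. At an unadjusted p below 0.05, limma had 1 of the 38, edgeR 0 and DESeq2 1. With the replicate number as a block in limma, 7 were called, 5 of them higher and 2 lower in the knockout. These were CARS, PHGDH, SLC1A5, SLC6A9, SLC7A11, VEGFA and VLDLR. Of all 13110 tested genes, the block called 1857 higher and 1912 lower, a larger share than in this list.

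Among the transcription regulators of the response, all 8 were apart in both genotypes and 6 were counted as lower. ATF4, the central activator, had 19599 and 19487 normalized counts in control replicates 1 and 3 against 26327 and 29913 in control replicates 2 and 4, and 20911 and 22199 against 30513 and 32739.6 in the knockout, a modest side difference of -0.54. ATF5, a related factor whose translation is controlled in the same way, had 3343 and 3398 normalized counts in control replicates 1 and 3 against 29198 and 23482 in control replicates 2 and 4, and 4488 and 3129.5 against 30056 and 28128 in the knockout (side difference -2.96). DDIT3, which encodes CHOP, the dimer partner of ATF4, had 489 and 495 normalized counts in control replicates 1 and 3 against 3188 and 3263 in control replicates 2 and 4, and 587 and 792 against 2761 and 3028 in the knockout (-2.40). The transcript of ATF4 itself thus differed far less than those of the factors it is known to activate. TRIB3, a pseudokinase that restrains ATF4 and CHOP, had 1128 and 1006 normalized counts in control replicates 1 and 3 against 20079 and 17545 in control replicates 2 and 4, and 1233 and 1463 against 10995 and 10309.5 in the knockout (-3.56). The chromatin-associated stress protein NUPR1 differed by -4.35, ATF3 by -2.01 and CEBPB by -1.45, all with the pairs apart in both genotypes.

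Of the 10 enzymes of amino acid and one-carbon metabolism, 9 were counted as lower, with a median of -1.70 and a range of -3.78 to -0.63. ASNS, which makes asparagine from aspartate and glutamine, had 2405 and 2619 normalized counts in control replicates 1 and 3 against 18523 and 22151 in control replicates 2 and 4, and 4592 and 4882 against 16755 and 28088 in the knockout. CTH, which releases cysteine from cystathionine, had 125 and 116 normalized counts in control replicates 1 and 3 against 2499 and 3048 in control replicates 2 and 4, and 302 and 239.7 against 2075 and 2437 in the knockout. In both genes each library of replicates 1 and 3 was below each library of replicates 2 and 4. PHGDH and PSAT1, the enzymes that open the serine pathway, differed by -1.69 and -1.72.

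The 7 amino acid transporters were less uniform, with 2 counted as lower and 5 apart in both genotypes. SLC6A9, a glycine transporter, had 180.2 and 175 normalized counts in control replicates 1 and 3 against 3085 and 2491 in control replicates 2 and 4, and 120.4 and 96.1 against 2041 and 1959.6 in the knockout (-4.08). SLC7A5, a large neutral amino acid transporter, was apart in both genotypes with a side difference of -0.92. SLC7A11, the cystine importer, had 397 and 530.5 normalized counts in control replicates 1 and 3 against 5565 and 7703 in control replicates 2 and 4, and 25434 and 6491 against 9093 and 17909.8 in the knockout. For this gene the difference was -3.83 in the control and 0.01 in the knockout, where the pairs overlapped and knockout replicate 1 was the highest of all 8 libraries. SLC3A2, the heavy chain that SLC7A5 and SLC7A11 share, also overlapped in the knockout (-0.81 in the control and -0.24 in the knockout).

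The tRNA synthetases, which charge tRNAs with their amino acids, and XPOT, which exports tRNAs from the nucleus, were all apart in both genotypes, with 5 of the 6 counted as lower (median -1.24). The largest difference was in WARS, the tryptophan enzyme, with 7169 and 7111 normalized counts in control replicates 1 and 3 against 40634 and 40713 in control replicates 2 and 4, and 8685 and 9747 against 40766 and 49204 in the knockout (-2.40). WARS is also an interferon-gamma target and stood in that list as well. AARS, the alanine enzyme, differed by -1.27.

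All 7 stress effectors and secreted factors were counted as lower (median -4.06, range -6.23 to -1.31). DDIT4, an inhibitor of mTORC1, had 988 and 839 normalized counts in control replicates 1 and 3 against 20161 and 19107 in control replicates 2 and 4, and 1069.9 and 1751 against 18367 and 20334 in the knockout. Replicates 2 and 4 were thus 17.4-fold higher, with little spread inside a pair. CHAC1, which degrades glutathione, had 119.9 and 123 normalized counts in control replicates 1 and 3 against 3010.3 and 3302 in control replicates 2 and 4, and 302 and 187 against 2113 and 3137 in the knockout. SESN2, a leucine sensor upstream of mTORC1, had 647 and 612 normalized counts in control replicates 1 and 3 against 6355 and 6601 in control replicates 2 and 4, and 803 and 693 against 4771 and 7228 in the knockout. GDF15, a secreted stress cytokine, was close to 0 in replicates 1 and 3. It had 4.02 and 3.22 normalized counts in control replicates 1 and 3 against 1144 and 868 in control replicates 2 and 4, and 2.13 and 23.02 against 184 and 278 in the knockout. VEGFA, the angiogenic growth factor, had 3598 and 3300.0 normalized counts in control replicates 1 and 3 against 30239 and 21475 in control replicates 2 and 4, and 2794 and 1740.1 against 12813 and 11885 in the knockout (-2.69), and the calcium-regulating hormone STC2 differed by -5.76. Members of this list named here beyond GDF15, NUPR1, DDIT4, SLC6A9, SLC7A5, SLC7A11, ATF3, SESN2, VEGFA and WARS were chosen after their values were seen.

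**Figure D2:**
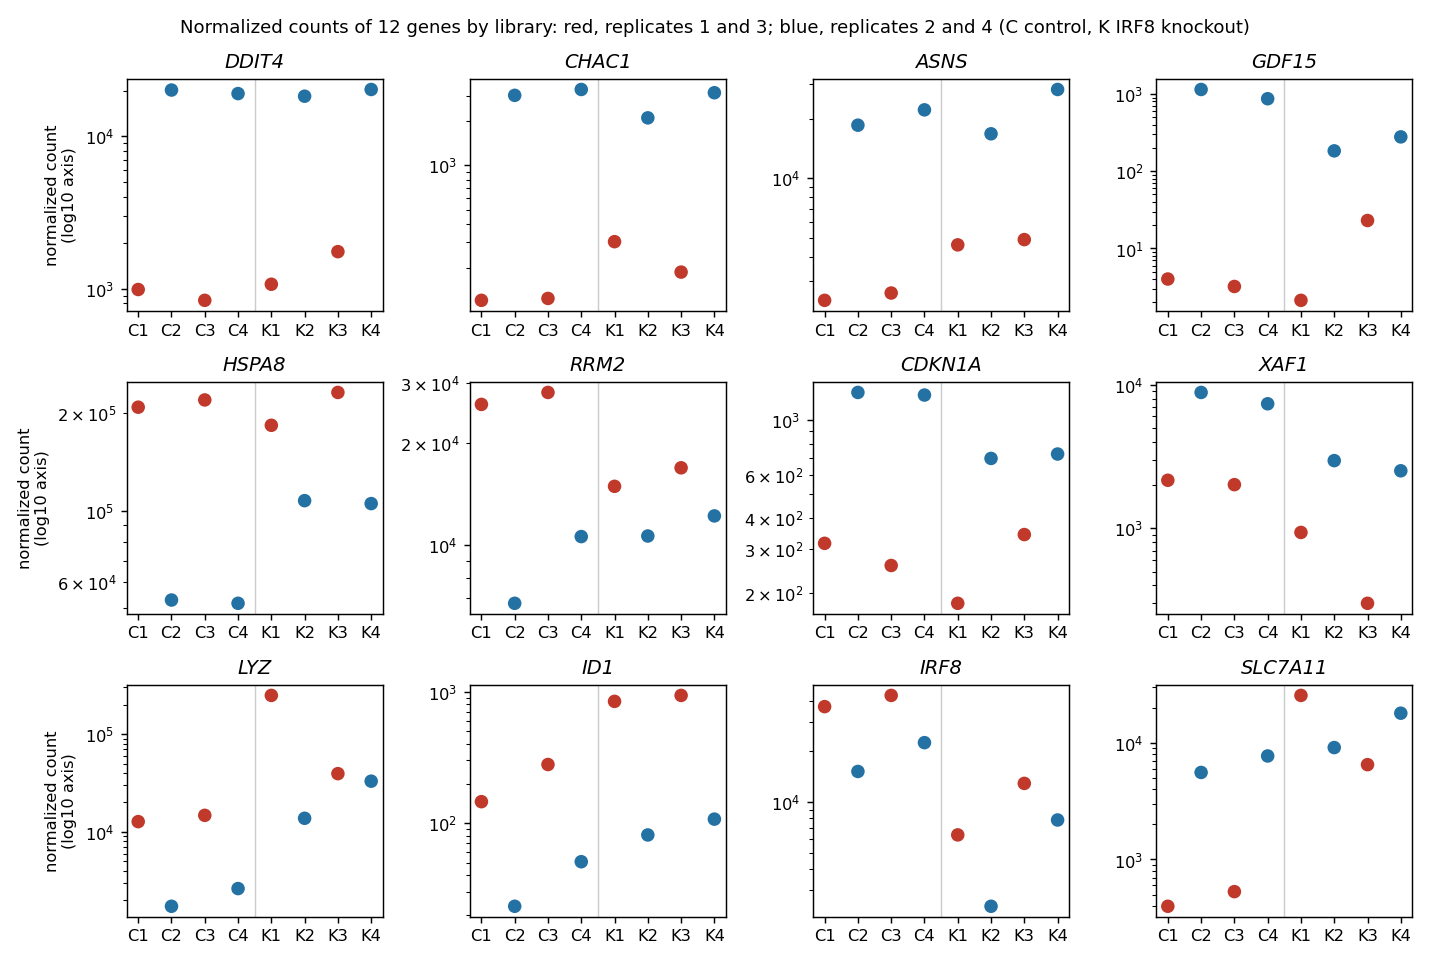
Normalized counts of 12 genes (y axis, log10 scale) in the 4 control and 4 knockout libraries (x axis), with replicates 1 and 3 in red and 2 and 4 in blue. The pairs were apart in both genotypes for all but IRF8 and SLC7A11, which overlapped in the knockout.

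The CHOP-ATF4 site TGATGCAA, a composite element through which ATF4 acts with C/EBP partners, was searched on both strands in the 250 bases before the RefSeq start of each gene (GRCh38.p14). It overlaps none of the other motifs searched by its letters. Promoters were matched for 10391 of the 13110 tested genes and 45 of them (0.433%) held the site, against 10 of 530 (1.89%) for the genes counted as lower, 1 of 177 (0.565%) for those counted as higher, and 2 of 32 (6.25%) for the integrated stress response list. The 10 windows of the genes counted as lower are shown as examples. Most genes counted as lower lacked the site, and the motif was chosen with earlier results known. Each is written 5′ to 3′ on the strand of its gene with 20 bases to either side, and capitals mark the site or its reverse complement.
CHAC1 (chr15:40953242-40953289, plus strand): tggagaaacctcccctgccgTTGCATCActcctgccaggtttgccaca
AARS (chr16:70289666-70289713, minus strand): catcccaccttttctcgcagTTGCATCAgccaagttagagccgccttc
HERPUD1 (chr16:56931946-56931993, plus strand): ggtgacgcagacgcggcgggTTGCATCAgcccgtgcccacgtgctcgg
GOT1 (chr10:99430795-99430842, minus strand): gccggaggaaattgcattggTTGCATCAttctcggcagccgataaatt
SYTL1 (chr1:27341956-27342003, plus strand): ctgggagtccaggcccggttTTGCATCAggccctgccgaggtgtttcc
FUT1 (chr19:48755450-48755497, minus strand): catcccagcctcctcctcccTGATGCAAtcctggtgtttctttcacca
IL20RB (chr3:136957887-136957934, plus strand): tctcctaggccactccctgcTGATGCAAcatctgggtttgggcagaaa
LPO (chr17:58238502-58238549, plus strand): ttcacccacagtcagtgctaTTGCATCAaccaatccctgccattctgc
IL21R (chr16:27427133-27427180, plus strand): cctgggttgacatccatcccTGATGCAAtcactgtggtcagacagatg
TBL1X (chrX:9463227-9463274, plus strand): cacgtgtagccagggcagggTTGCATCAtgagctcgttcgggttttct

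A match is a description of the letters and not a bound site. The windows end between 19 and 182 bases before the start of their gene. Of these genes, CHAC1 and AARS are members of the integrated stress response list, HERPUD1 takes part in degrading misfolded proteins of the endoplasmic reticulum (-1.12), and GOT1 is the aspartate aminotransferase of the cytosol (-1.01). The fucosyltransferase gene FUT1 had 4.83 and 2.15 normalized counts in control replicates 1 and 3 against 137 and 246 in control replicates 2 and 4, and 6.39 and 4.06 against 82.2 and 102 in the knockout (-4.68). IL20RB and IL21R encode cytokine receptor chains and differed by -2.70 and -1.47, the vesicle-docking gene SYTL1 by -2.50, the peroxidase gene LPO by -2.58 and the corepressor gene TBL1X by -1.27. Apart from SYTL1 and HERPUD1, these genes are named here for their windows, after their values were seen.

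The genes with the largest differences in this direction outside that list were nearly silent in replicates 1 and 3. GDAP1L1, a relative of a mitochondrial fission gene, had 7.24 and 3.22 normalized counts in control replicates 1 and 3 against 2379 and 2223 in control replicates 2 and 4, and 6.39 and 5.42 against 609.8 and 609.9 in the knockout (-7.54, the largest of all 739). ESRP1, a splicing regulator of epithelial cells, had 4.83 and 2.15 normalized counts in control replicates 1 and 3 against 1480.2 and 1366 in control replicates 2 and 4, and 0 and 1.35 against 70.7 and 121 in the knockout. INHBE, which encodes the beta E subunit of activin, had 25.7 and 38.7 normalized counts in control replicates 1 and 3 against 2246 and 2365 in control replicates 2 and 4, and 26.6 and 35.2 against 943 and 1459 in the knockout. These 3 genes thus had at most 38.7 normalized counts in any library of replicates 1 and 3 and at least 70.7 in any of replicates 2 and 4. Of the others, ANKRD34C differed by -6.21, KLHDC7B by -6.18, the growth factor-releasing protease gene PAPPA2 by -5.62, the kinase gene ALPK2 by -5.06, the complement receptor gene C5AR1 by -4.92 and the sodium channel gene SCN4A by -4.54. KCNE1 (-4.77) and KCNE1B (-4.997), potassium channel subunits, are near-identical copies whose reads the counting may have divided, so their separate values are uncertain.

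The cytosolic heat shock genes went the other way. All 19 were above 0, 15 were apart in both genotypes and 10 were counted as higher in replicates 1 and 3, with a median of 1.05 (1.47 in the control and 0.61 in the knockout). HSPA8, the constitutive Hsp70 chaperone, had 209006 and 220119 normalized counts in control replicates 1 and 3 against 52802 and 51583 in control replicates 2 and 4, and 183689 and 232205 against 107291 and 105067 in the knockout. HSPE1, the small partner of the mitochondrial chaperonin, had 8459.7 and 8949 normalized counts in control replicates 1 and 3 against 1814 and 2311 in control replicates 2 and 4, and 7186 and 11064 against 4117 and 4428 in the knockout. HSPH1, a nucleotide exchange factor of Hsp70, had 70303 and 76501 normalized counts in control replicates 1 and 3 against 17462 and 20127 in control replicates 2 and 4, and 70408 and 69986 against 42113 and 34735 in the knockout. In the 3 genes the pairs were apart in both genotypes, and the gap was narrower in the knockout, where replicates 2 and 4 were higher than in the control. HSP90AB1 was also apart (0.88). HSPA1B (1.39) and HSPA1A, the inducible Hsp70 genes, are near-identical copies and were not counted separately with certainty.

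Chaperones of the endoplasmic reticulum did not follow as a group. The median of the 19 unfolded protein response genes was -0.01, with 2 counted in each direction. CALR, a chaperone of glycoproteins, had 100407 and 92318 normalized counts in control replicates 1 and 3 against 34129 and 38672 in control replicates 2 and 4, and 173799 and 166993 against 88322 and 103358 in the knockout (1.12), and SDF2L1, a component of chaperone complexes, differed by 1.21. DNAJB9 (-1.13) and HERPUD1 were counted as lower.

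Genes of growth were moderately higher in replicates 1 and 3. In the list of MYC targets and ribosome biogenesis, 26 of 28 genes were above 0, 18 were apart in both genotypes and 3 were counted, with a median of 0.55 (0.84 and 0.35 in control and knockout). UTP20, needed to process ribosomal RNA, had 4686 and 4923 normalized counts in control replicates 1 and 3 against 1468 and 1659.9 in control replicates 2 and 4, and 3512 and 2800.5 against 1888 and 2007 in the knockout. TFRC, the transferrin receptor, differed by 1.07 and NME1, a nucleoside diphosphate kinase, by 1.01. NPM1, the member of this list with the highest mean count, was 0.60 in the control and 0.19 in the knockout, where its pairs overlapped. The nuclear genes of oxidative phosphorylation were shifted by a small and even amount, with 44 of 45 above 0, 38 apart in both genotypes and none counted. Their median was 0.50, 0.54 in the control and 0.46 in the knockout. COX7B, a subunit of cytochrome c oxidase, had 6179 and 6198 normalized counts in control replicates 1 and 3 against 2347 and 2949 in control replicates 2 and 4, and 7016 and 9848 against 4019 and 6019 in the knockout. Structural ribosomal proteins showed no common shift (median -0.04 over 76 genes, none counted).

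Cell cycle genes differed between the pairs in the control, and little in the knockout. Within 1 genotype, replicates 1 and 3 were apart and higher for 39.2% of all tested genes in the control and 25.3% in the knockout, and apart and lower for 42% and 24.1%. All 42 S phase genes were apart in the control, each higher in replicates 1 and 3, with a median of 0.99, and in the knockout 20 were apart and higher and 3 apart and lower, with a median of 0.14. Of the 54 G2/M genes, 51 were apart and higher in the control (median 1.11) and 15 in the knockout (median 0.08), where 5 were apart and lower. Counted were 1 S phase gene and 4 G2/M genes. RRM2, a subunit of ribonucleotide reductase, had 26018 and 28217 normalized counts in control replicates 1 and 3 against 6746 and 10610.2 in control replicates 2 and 4, and 14921 and 16921 against 10651 and 12207 in the knockout. BIRC5, or survivin, a subunit of the chromosomal passenger complex, had 13484 and 12874 normalized counts in control replicates 1 and 3 against 3474 and 4786 in control replicates 2 and 4, and 7544 and 9796 against 6161 and 6688 in the knockout. For both genes the control pairs were further apart than the knockout pairs, which lay between the control pairs. The replication helicase gene MCM4 differed by 1.43 in the control and 0.45 in the knockout, TYMS, which makes thymidylate, by 1.46 and 0.44, FEN1, a flap endonuclease, by 1.33 and 0.55, and the spindle gene TACC3 by 1.54 and 0.56. SMC4, a condensin subunit, was higher in replicates 1 and 3 of the control (0.46), and its knockout pairs overlapped (-0.64).

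Regulators of the cell cycle differed in both directions. CDKN1A, which encodes the CDK inhibitor p21, was lower in replicates 1 and 3, with 317 and 258 normalized counts in control replicates 1 and 3 against 1295 and 1264 in control replicates 2 and 4, and 181 and 344 against 699.7 and 729 in the knockout (-1.84). CCND2, cyclin D2, had 3056 and 2368 normalized counts in control replicates 1 and 3 against 7404 and 6455 in control replicates 2 and 4, and 2646 and 4262 against 7113 and 8062 in the knockout (-1.27). CCNE1, cyclin E1, was higher, with 726 and 884 normalized counts in control replicates 1 and 3 against 162 and 309 in control replicates 2 and 4, and 709 and 695 against 447 and 444 in the knockout (1.24). Thus p21 and cyclin D2 shared a direction with the stress genes and cyclin E1 with the S phase genes, each apart in both genotypes. CCND3, the D cyclin with the highest mean count, overlapped in the knockout (0.30 in the control and -0.17 in the knockout).

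The type I interferon-stimulated genes were lower in replicates 1 and 3. Of 45 tested, 41 were below 0, 24 were apart and lower in both genotypes, none was apart and higher, and 11 were counted. The median was -0.74, with -0.81 in the control and -0.61 in the knockout. XAF1, a proapoptotic interferon target, had 2158 and 2012 normalized counts in control replicates 1 and 3 against 8817 and 7352 in control replicates 2 and 4, and 936 and 301 against 2957 and 2512 in the knockout. RSAD2, the antiviral enzyme viperin, had 52.3 and 42.96 normalized counts in control replicates 1 and 3 against 198 and 222 in control replicates 2 and 4, and 51.2 and 55.5 against 206 and 166 in the knockout. IFIT2, which binds viral RNA, had 10.5 and 9.66 normalized counts in control replicates 1 and 3 against 41.4 and 43.3 in control replicates 2 and 4, and 141 and 288 against 495 and 559 in the knockout. The levels of IFIT2 were also higher in the knockout, so that the lowest knockout value was above the highest control value. LGALS3BP was counted as lower (-1.72), but knockout replicate 1, at 525, was far below the other 3 knockout libraries, and the difference was -0.76 without it and -2.68 without knockout replicate 3. IFITM2, the member with the highest mean count, differed little (-0.47) and overlapped in the knockout.

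The core of the interferon-stimulated response element, GAAANNGAA, was found in the upstream 250 bases of 22 of 34 matched members of this list (64.7%), against 5.83% of all matched promoters, 6.98% of those of the genes counted as lower and 6.78% of those of the genes counted as higher. Of the 5 members named above, the core was found before RSAD2 and LGALS3BP, and these windows, with 20 bases to either side and the core in capitals, are shown as examples of the element.
RSAD2 (chr2:6865786-6865834, plus strand): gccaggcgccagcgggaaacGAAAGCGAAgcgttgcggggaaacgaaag
LGALS3BP (chr17:78979953-78980001, minus strand): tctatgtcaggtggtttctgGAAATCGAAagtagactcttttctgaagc

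Among interferon-gamma and guanylate-binding genes, 13 of 22 were apart and lower in both genotypes and 8 were counted (median -0.67). APOL6, an interferon-induced apolipoprotein L, had 1441 and 1205 normalized counts in control replicates 1 and 3 against 5583 and 6114 in control replicates 2 and 4, and 3739 and 1762 against 6051 and 7618 in the knockout. GBP4, a guanylate-binding protein, had 514 and 416 normalized counts in control replicates 1 and 3 against 766 and 974 in control replicates 2 and 4, and 2.13 and 52.8 against 66.9 and 172 in the knockout, with a side difference of -0.96 without knockout replicate 1 and -3.01 without knockout replicate 3, and GBP5 overlapped in the knockout (-2.14 in the control and -3.05 in the knockout). The class I light chain gene B2M was apart in both genotypes with a small difference (-0.36). Class II MHC genes, which present antigen on professional antigen-presenting cells, had a median of -0.86, made up of -0.01 in the control and -1.61 in the knockout. HLA-DRA had 9849.8 and 7869 normalized counts in control replicates 1 and 3 against 6464 and 9588 in control replicates 2 and 4, and 28.8 and 504 against 2262 and 422 in the knockout. In the knockout, replicate 2 alone was high and replicate 1 alone very low, and without knockout replicate 2 the median of the 12 class II genes was -0.45. No class II gene was counted.

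The genes highest in replicates 1 and 3 included receptors, inhibitors of differentiation and myeloid secretory products. GPR183, an oxysterol receptor that guides immune cells in lymphoid tissue, had 1026 and 1079 normalized counts in control replicates 1 and 3 against 75.04 and 54.6 in control replicates 2 and 4, and 1589 and 808 against 152 and 139 in the knockout (3.49, the largest of the 221). IL7R, the interleukin-7 receptor, had 2436 and 2592 normalized counts in control replicates 1 and 3 against 115 and 339 in control replicates 2 and 4, and 4769 and 2428 against 775 and 1438 in the knockout (2.68). IL6R, the interleukin-6 receptor, had 3952 and 4622 normalized counts in control replicates 1 and 3 against 649 and 1069 in control replicates 2 and 4, and 4733 and 2423 against 658 and 1068 in the knockout (2.19). The 3 receptor genes were apart in both genotypes. GPR183 was low in every library of replicates 2 and 4, while IL7R still reached 1438 and IL6R 1069 there. ID1, an inhibitor of basic helix-loop-helix factors, had 146 and 279 normalized counts in control replicates 1 and 3 against 23.3 and 50.8 in control replicates 2 and 4, and 844 and 937 against 81.2 and 107 in the knockout (2.88), and its relative ID3 differed by 3.16. LYZ, lysozyme, had 12725 and 14757 normalized counts in control replicates 1 and 3 against 1734 and 2629.7 in control replicates 2 and 4, and 248604 and 39385 against 13767 and 32984 in the knockout (2.45). MNDA, a nuclear protein of myeloid cells, had 375 and 353 normalized counts in control replicates 1 and 3 against 28.5 and 113 in control replicates 2 and 4, and 13562 and 10089 against 1413 and 4002 in the knockout (2.48). For LYZ the knockout pairs were apart by a small margin, between replicates 3 and 4, and replicate 1 was far above the others. The others of the first 12 were the haptoglobin gene HP (3.06), the glycosyltransferase gene UGT3A1 (2.82), the matrix protease gene ADAMTS5 (2.20), the cation transporter gene SLC22A4 (2.20) and the fatty acid elongase gene ELOVL3 (2.14).

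Markers of maturing myeloid cells had medians near 0, while their sums, which the most abundant genes set, were higher in replicates 1 and 3. The summed monocyte markers were 89379 and 88282 against 67058 and 68500 normalized counts in the control and 326442 and 109615 against 79020 and 91269 in the knockout, and the summed neutrophil granule markers 98735 and 95486 against 88975 and 93499 in the control and 893759 and 528069 against 277439 and 464796 in the knockout. Both sums were thus apart in both genotypes, by the smallest margin for the granule markers of the control. The monocyte list had a median of 0.17 over 36 tested genes, with 4 counted as higher and 1 as lower, and the neutrophil granule list -0.01 over 19, with 3 counted as higher. CLEC12A, a myeloid lectin receptor, differed by 1.92, RNASE3, an eosinophil and neutrophil ribonuclease, by 1.63, and PRTN3, proteinase 3, by 1.08. CEBPE, the factor that drives late granule genes, had 53.1 and 54.8 normalized counts in control replicates 1 and 3 against 35.4 and 32.95 in control replicates 2 and 4, and 3524 and 4479.6 against 1056 and 1118 in the knockout. S100A8 and S100A9, the calprotectin chains, were apart in the control (3.92 and 3.14) and overlapped in the knockout.

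Of the cell type lists, the summed B cell markers lay between 1532 and 4510.3 normalized counts in replicates 1 and 3 and between 5471 and 9163 in replicates 2 and 4. Of 12 B cell genes 7 were tested and 3 counted as lower, including CD79A (-1.72), a signaling chain of the B cell receptor, and the transcription factor gene EBF1 (-1.39), while MS4A1 was at 0 in every library. The summed epithelial and stromal markers were higher in replicates 1 and 3, at 37020.4 to 46374 against 21528 to 27335, but KRT19 and COL3A1 were at 0 in every library and most of the sum came from VIM. In the erythroid and megakaryocyte list, TAL1 (-3.60) and the integrin gene ITGA2B (-1.35) were counted as lower and TFRC as higher (1.07, and 0.69 without control replicate 2), while 7 of 20 genes, the globin gene HBB among them, were at 0. The summed markers of this list, most of them TFRC, were higher in replicates 1 and 3, with 65480 and 68663 against 32770 and 61215 in the control and 65992 and 47763 against 30838 and 39577 in the knockout. In the list of T and natural killer cells 4 of 18 genes were tested, of which PRF1 (-2.74) and NCAM1 (-1.59) were counted as lower, while NKG7 (0.20) and GZMA (0.97), the latter named after its values were seen, were above 0 and not counted. The GZMA value combines 3.21 in the control with -1.26 in the knockout. The sums of this list were lower in replicates 1 and 3, with 8775 and 8072 against 22068 and 15097 in the control and 3435 and 3199 against 4684 and 6584 in the knockout. Summed stem and progenitor markers were lower as well, with 92930 and 99553 against 114155 and 102967 in the control and 79854 and 84542 against 88443 and 96884 in the knockout. The dendritic cell sums were higher in replicates 1 and 3 of the control and overlapped in the knockout. That list holds IRF8 itself, which made up most of the sum in control replicates 1 and 3. The median side difference of its 11 tested genes was -0.57, with 8 below 0 and 3 above. Of these genes 4 were apart and lower in both genotypes, and 0 apart and higher. The part of any of these genes in the other differences was not tested.

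Lists for other pathways were mixed. In the list of glycolysis and hypoxia genes (median -0.14 over 36), the hypoxia-induced genes ALDOC (-1.88) and SLC2A3 (-1.68), a brain aldolase and a glucose transporter, were counted as lower, while GAPDH was slightly higher (0.19). Among the 31 immediate early genes and targets of ERK signaling, 4 were counted as lower, including ETV5, with 1638 and 1457 normalized counts in control replicates 1 and 3 against 5805 and 6295 in control replicates 2 and 4, and 1043 and 1173 against 3804 and 4269 in the knockout, and none as higher. FOS went the other way (1.84, and 1.04 without knockout replicate 1) and overlapped in the knockout. PIM1, a kinase gene induced by STAT5 downstream of FLT3, had 15146 and 11116 normalized counts in control replicates 1 and 3 against 32925 and 32072 in control replicates 2 and 4, and 24242 and 26009.8 against 49244 and 50902 in the knockout (-1.16), and FLT3 itself differed by -0.44 with the pairs apart in both genotypes. Of the 12 genes in the list of STAT5 and FLT3 output, 8 were below 0 and 4 above. PIM1 was counted as lower and ID1 as higher (2.88). In the list of NF-kappaB targets, the adhesion gene ICAM1 was lower (-1.999) and the cytokine genes IL1RN (1.49) and CXCL8 (1.31) were higher. ABCA1, a cholesterol exporter induced by LXR, had 467 and 210.5 normalized counts in control replicates 1 and 3 against 1738 and 1224 in control replicates 2 and 4, and 639 and 428 against 1315 and 2236 in the knockout. Of 26 p53 targets 6 were counted as lower and 1 as higher. The lower ones included GADD45A (-1.96), and also CDKN1A, SESN2 and GDF15, which stand in other lists. In the BCL2 family (median -0.19 over 15), the proapoptotic genes BBC3 (-1.41), BMF (-1.27) and PMAIP1 (-1.07) and the survival gene BCL2 (-1.04, and -0.69 without knockout replicate 2) were all counted as lower. None was counted as higher, but 6 of the 15 were above 0. In both genotypes 4 were apart and higher, against 6 apart and lower. MT1G, a metallothionein, and PRDX1, a peroxiredoxin, were counted as higher (1.09 and 1.01). The 28 cholesterol genes (median -0.01) had none counted.

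The difference between the pairs was set side by side in the 2 genotypes. It was wider in the control, where its standard deviation over genes was 0.858, than in the knockout, where it was 0.658. In the control 2104 genes were apart and at least 2-fold different, in the knockout 928. The pairs were apart in opposite directions for 609 genes, and in 23 of these by at least 2-fold in each genotype. The gap between the genotypes of the difference was largest, among genes apart in both, where the control difference was more negative, in GDF15, PAPPA2, C5AR1, DNASE2 and SYTL1. DNASE2, a lysosomal nuclease, had 232 and 184 normalized counts in control replicates 1 and 3 against 2497 and 2627 in control replicates 2 and 4, and 7624 and 5099.9 against 8253 and 10010.5 in the knockout. It was thus low in 2 libraries of the control and in no library of the knockout. Toward the other end stood UGT3A1, SASH1, CPLANE1, AFF3 and CADM1. CADM1, an adhesion molecule, had 1648 and 1259 normalized counts in control replicates 1 and 3 against 12392 and 10704 in control replicates 2 and 4, and 28.8 and 241 against 13358 and 1535 in the knockout. SASH1, a scaffold protein, was higher in replicates 1 and 3 of the control and lower in those of the knockout, with 399 and 398 normalized counts in control replicates 1 and 3 against 56.9 and 198 in control replicates 2 and 4, and 1.07 and 4.06 against 5.73 and 11.8 in the knockout. The knockout values of SASH1 were at most 11.8, near the level of a few reads. AFF3 differed by -0.31 and -3.08 in control and knockout, at no more than 50 normalized counts in a knockout library.

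**Figure D3:**
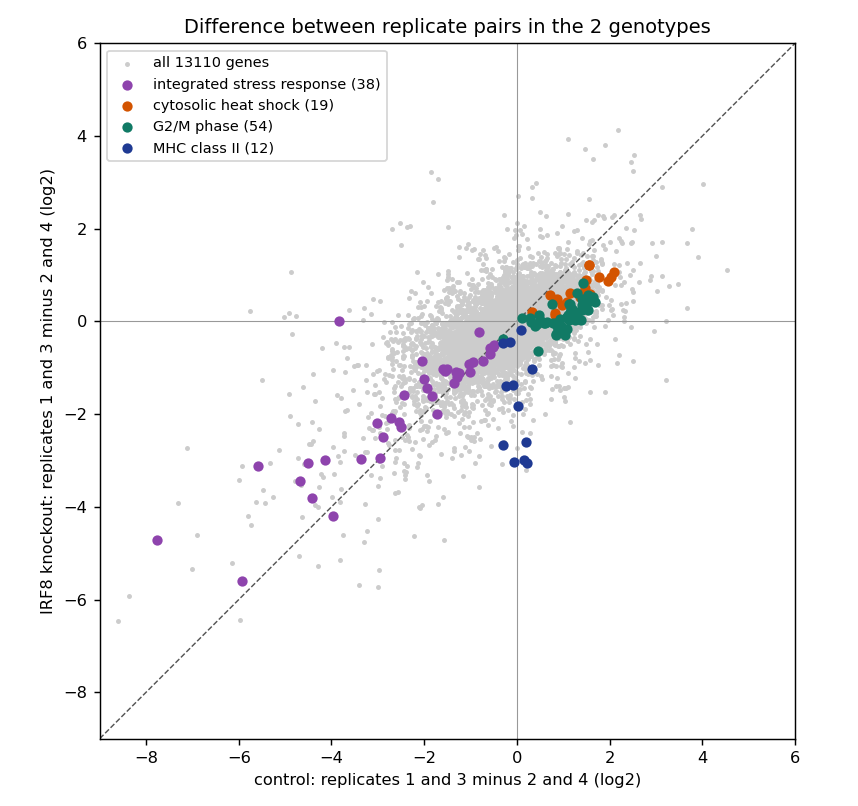
Side difference (log2, replicates 1 and 3 minus 2 and 4) of each of 13110 genes in the control (x axis) and in the IRF8 KO libraries (y axis), with the dashed line at equal values and 4 gene lists in colour. Integrated stress response genes ran along the line to strongly negative values in both genotypes, heat shock genes were positive in both, G2/M genes lay at a control median of 1.11 near 0 in the knockout, and MHC class II genes were spread in the knockout alone.

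Of the interferon regulatory factors, IRF8 was higher in replicates 1 and 3 of the control (1.11), and the knockout pairs overlapped (1.07). Between the genotypes it fell by 2.11 on the log2 scale (SE 0.51, n = 4 each; limma adjusted p = 0.022 and exact permutation p = 0.029), and within the pairs the log2 fold change was -2.13 in replicates 1 and 3 and -2.09 in replicates 2 and 4. The call was lost without control replicate 1, control replicate 3 or knockout replicate 1 (limma adjusted p between 0.053 and 0.058). IRF5 was higher in replicates 1 and 3 of both genotypes, with 1212 and 1411 normalized counts in control replicates 1 and 3 against 619 and 963 in control replicates 2 and 4, and 343 and 211 against 195 and 103 in the knockout. Its genotype log2 fold change was -2.28 within replicates 1 and 3 and -2.44 within replicates 2 and 4 (-2.36 over all, limma adjusted p = 0.0037). IRF1 was lower in replicates 1 and 3 of both genotypes (-0.79), as were IRF2 (-0.37) and IRF9 (-0.74), and IRF3 was higher (0.32). IRF4 overlapped in the control and IRF7 in the knockout. None of these factors was counted.

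The question the study asked of these libraries is how the IRF8 KO cells differ from the control, and the split bears on it. With genotype alone in the model, 627 genes (4.78%) were higher and 802 (6.12%) lower in the knockout by the criteria of the study, which are a 2-fold difference and an unadjusted p (here from limma) below 0.01. With the side as a second term the numbers were 747 and 973. At a limma adjusted p below 0.05 with no fold, they rose from 1134 and 1253 to 2157 and 2176, and with the replicate number as a block they were 1857 and 1912. Because the side was chosen from these libraries, the spread left after it is small by choice, and its added calls are no independent evidence. The replicate block contains the same split, so the calls it adds are no independent evidence either. Of the 221 genes counted as higher between the pairs, 27 were also called higher and 14 lower in the knockout, and of the 739 counted as lower, 23 and 73.

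For several lists the genotype difference had opposite signs in the 2 pairs. The S phase genes had a median genotype log2 fold change of -0.41 within replicates 1 and 3 and 0.43 within replicates 2 and 4, and the G2/M genes -0.58 and 0.30. For the heat shock list the medians were -0.16 and 0.34, and for the MYC list -0.22 and 0.30. The median of oxidative phosphorylation genes was higher in the knockout by like amounts in both pairs (0.40 and 0.46), as was that of type I interferon-stimulated genes (0.36 and 0.31), and that of MHC class II genes was lower in both (-3.15 and -1.60). These medians are descriptions of the lists, and the difference between the pairs was not tested. Single interferon-stimulated genes went both ways. With genotype alone, limma called 11 of the 45 higher and 3 lower in the knockout at an adjusted p below 0.05, against 8.65% and 9.56% of all tested genes.

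**Figure D4:**
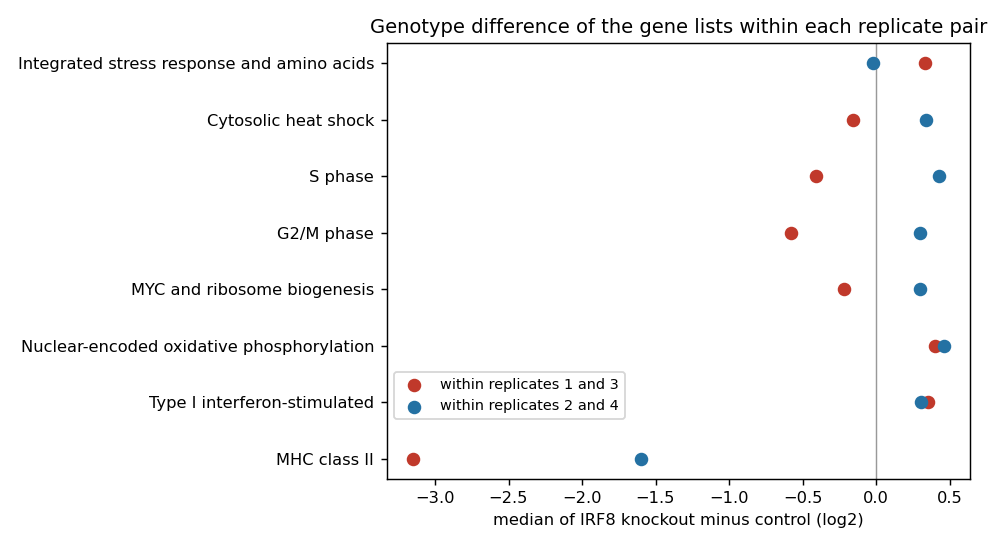
Median log2 difference of IRF8 KO minus control (x axis) for 8 gene lists (y axis), within replicates 1 and 3 in red and within replicates 2 and 4 in blue. The S phase, G2/M, heat shock and MYC medians lay on opposite sides of 0 in the 2 pairs, and the MHC class II medians were negative in both.

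Genes that the study singled out between the genotypes were compared in each pair. SRC had a genotype log2 fold change of -2.003 within replicates 1 and 3 and -2.29 within replicates 2 and 4 (-2.14 over all, limma adjusted p = 0.00012). For PTK2, the focal adhesion kinase gene, the values were -4.60 and -3.03 (-3.82 over all, limma adjusted p = 8.7e-04), and for PAK5 they were -7.02 and -4.61 (-5.82 over all, limma adjusted p = 2.8e-04). These 3 genes were lower in the knockout in both pairs, by more than the spread between replicates. RUNX1 was lower by 0.56 and by 0.24 on the log2 scale in the 2 pairs, and with genotype alone it did not pass an adjusted p of 0.05 (-0.40, limma adjusted p = 0.15). Blocking on the replicate number, which contains the chosen split, gave a limma adjusted p of 0.035, which is no independent evidence. CCND1, cyclin D1, had 61.1 and 44.03 normalized counts in control replicates 1 and 3 against 101 and 63.1 in control replicates 2 and 4, and 4.26 and 14.9 against 37.3 and 24.6 in the knockout. It was counted as lower in replicates 1 and 3 (-1.19, and -0.79 without knockout replicate 1), its genotype log2 fold change was -2.53 and -1.37 in the pairs (-1.95 over all, limma adjusted p = 0.052), and the adjusted p was 0.016 in limma with the block and 0.020 in DESeq2 with genotype alone. AKT1 had -0.73 within replicates 1 and 3 and -0.26 within replicates 2 and 4 (-0.49 over all, limma adjusted p = 0.046), and the adjusted p was above 0.05, at up to 0.12, without any 1 of the libraries except control replicate 2. SLC7A11 differed by 4.80 within replicates 1 and 3 and 0.96 within replicates 2 and 4 (2.88 over all, limma adjusted p = 0.080, and 0.035 with the replicate block).

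Of 19 neutrophil granule genes, 12 were called higher and 1 lower in the knockout (limma adjusted p below 0.05). Of all tested genes, 8.65% were called higher and 9.56% lower in this way. The median genotype log2 fold change of the list was 2.34 within replicates 1 and 3 and 2.04 within replicates 2 and 4. CEBPE was higher in the knockout by 6.18 within replicates 1 and 3 and 4.95 within replicates 2 and 4 (5.56 over all, limma adjusted p = 2.2e-04). PRTN3 was higher by 2.82 and 2.95 (2.88 over all, limma adjusted p = 0.0017). CD74, the class II invariant chain, was lower, with -2.60 and -1.45 (-2.02 over all, limma adjusted p = 0.014), and HLA-DRA with -6.17 and -3.01 (-4.59 over all, limma adjusted p = 0.020). For LYZ the genotype log2 fold change was 2.85 and 3.32 in the pairs, and over all libraries it was 3.09 with a limma adjusted p of 0.060, against 0.0021 when blocked on the replicate number and 0.014 in DESeq2 with genotype alone.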

How the data were processed

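RNA-Seq was analysed in 4 control and 4 IRF8 KO libraries of MV4-11 cells, and the 2 ChIP-Seq samples were not analysed here. According to the methods of the study, poly(A) RNA libraries (TruSeq Stranded mRNA) were aligned with RNA-Star to GENCODE, counted with featureCounts and normalized with DESeq2. Which genome build the RNA-Seq used is not stated in these sources. The deposited signal is read counts per gene divided by 1 size factor per library by the authors, for 19590 genes. Columns named as wild type were taken as control replicates of their number. All columns were assigned to a library (0 left out). The authors' table of their own comparison (log2 fold changes, p-values) was not used.

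Low values are whole multiples of the value of 1 read, which gave whole reads for all values (tolerance 0.01 reads) and the depth of each library. Side differences were computed on log2(normalized count + 1) for 13110 genes with a mean of at least 10. The genotype comparison used limma 3.58.1 in R 4.3.3 (trended, robust variance, Benjamini-Hochberg adjustment), with DESeq2 1.42.0 and edgeR 4.0.16 on the recovered reads as alternatives, and exact two-sided permutation tests, for which 0.029 is the smallest p with 4 against 4. Genotype differences within a pair came from a fit with 4 means. The limma step and the side difference with its rule were tested on simulated data, and the edgeR and DESeq2 comparisons were not. Since nothing says that replicates were separate cultures, p-values measure the spread between these libraries, which may be technical.

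The members, the gene lists, the motifs and the rules were chosen with earlier results of these data known. Named genes were the 12 largest differences in each direction among counted genes with a mean of at least 100, up to 4 members with the largest differences and the member with the highest mean of each list, the 5 genes in each direction whose difference varied most between genotypes, the IRF family, and SRC, PTK2, RUNX1, IRF5, CCND1, AKT1 and PAK5. Not every gene of the rule is described. Genes outside it are named as such. Symbols were matched, also by synonym, with RefSeq genes, and promoters are from RefSeq (GRCh38.p14).

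Same-numbered control and knockout libraries deviated together from their group means (correlations across genes of 0.37, 0.48, 0.45 and 0.50 in the order of the numbers). Libraries of the same pair with different numbers did so to a like degree (0.40 to 0.47), and the split was chosen for this pattern, so these values do not tell the number from the pair. Neither labels nor methods say what the numbers mark, and the replicate block, which contains the chosen split, is given as an alternative.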

Additional observations from a re-analysis of the deposited data

Results flagged for a closer look

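Among 300 groups of 4 libraries (the read totals and 149 genes in each genotype), 3 held a library set apart from the other 3 by Dixon's test at the 95% level, which chance gives in about 1 of 20 groups. LGALS3BP had 525 normalized counts in knockout replicate 1, against 7525 to 10203 in the other knockout libraries. IRF4 had 719 in control replicate 2, against 489 to 513 in the other control libraries. S100A8 had 127 in knockout replicate 2, against 1154 to 1739 in the other knockout libraries.

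For 3 genes of the text the pairs were apart in opposite directions in the genotypes. The side difference in the control minus that in the knockout was 3.42 for SASH1, 2.41 for PAK5 and 4.48 for GZMA, and this difference was not tested. For PAK5 it was 0.74 in the control and -1.67 in the knockout, where no library had more than 4 normalized counts. For GZMA no knockout library had more than 1.91 normalized counts.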

How the results depend on the processing

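The 221 genes counted as higher and 739 as lower in replicates 1 and 3 kept to within 1.5 times of these numbers under other pseudocounts, scalings and with overlap allowed. A fold of 1.5 gave 996 and 1430, a fold of 3 gave 52 and 327, and a mean of at least 100 gave 475 lower genes. With 1 library left out the counts ranged from 193 to 335 and from 724 to 970, the highest number of higher genes (335) being reached without knockout replicate 1. No replicate block could be fitted to the side, which is a property of the replicate number.

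The list medians kept their sign in each genotype for the 7 lists on which the text rests. Within the control and within the knockout they were 0.99 and 0.14 for S phase, 1.11 and 0.08 for G2/M, 0.84 and 0.35 for MYC, -0.81 and -0.61 for type I interferon, -1.96 and -1.38 for the integrated stress response, 1.47 and 0.61 for heat shock, and 0.54 and 0.46 for oxidative phosphorylation. The MHC class II list, also in the figures, had a median near 0 in the control (-0.01) and -1.61 in the knockout. With 1 library left out the medians over both genotypes ranged from 0.49 to 0.68 for MYC and from -0.82 to -0.59 for type I interferon, which was -0.68 with a pseudocount of 5. Several other lists had a median within 1 genotype of opposite sign to their value over both genotypes. Among them were the monocyte list (-0.011) and the replication-dependent histones (-0.34) within the control. Within the knockout they included the lysosome (0.13), neutrophil granule (0.31), cholesterol (0.21) and unfolded protein response (0.11) lists. The cause was not tested.

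With the replicate number as a block (replicate block), 717 genes were called higher and 952 lower in the knockout, against 627 and 802 without it. Other settings gave 428 to 904 higher and 557 to 973 lower genes, and 536 to 678 and 702 to 855 with 1 library left out. At an adjusted p below 0.05 with no fold, limma called 1134 and 1253 genes, 1857 and 1912 with the block, 2157 and 2176 with the side as a term, and 755 to 1164 and 910 to 1278 with 1 library left out, the fewest without control replicate 1. The block changed the call of RUNX1, CCND1, SLC7A11 and LYZ among the 14 genes whose genotype values are given, and DESeq2 with genotype alone also called CCND1 and LYZ. Over the settings run, adjusted p lay between 0.0095 and 0.29 for RUNX1, 0.0092 and 0.13 for CCND1, 0.0017 and 0.30 for SLC7A11 and 0.0021 and 0.14 for LYZ. The lowest values came from limma fits that use the chosen split, and are no independent evidence. They were found within replicates 1 and 3 for RUNX1 and SLC7A11, with the side as a term for CCND1, and with the block for LYZ.

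With 2 libraries per pair and genotype, the spread inside a pair rests on few libraries, and genes with under 10 normalized counts were not examined.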
